A study of Mus musculus with 6 samples.

Results

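This account covers 10 genes of pigment cells and of the retinal pigment epithelium, chosen by name from the 20175 genes of the table: Pmel, Tyr, Tyrp1, Dct and Mlana of melanin synthesis, and Best1, Rgr, Ttr, Rdh5 and Trpm3 of the pigment epithelium. Poly-A RNA was sequenced from mouse retina on postnatal day 2 (P2). There were 3 control libraries, whose genotype is given only as control, and 3 libraries from mice homozygous for loxP-flanked Zeb2 (Zeb2 loxp/loxp) that carry αCre, called Zeb2 mutant here. αCre is known to act in progenitors of the peripheral retina. The sources used here give neither the strain of either group nor whether the controls carried Cre or loxP alleles.

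Melanin is made inside melanosomes, organelles of 2 kinds of cell in the eye. One is the pigment epithelium, a sheet that arises from the optic cup and lies against the photoreceptors. The other is the melanocyte of the choroid and iris, which comes from the neural crest. The pigment epithelium also turns over retinoids for the photoreceptors (the visual cycle) and moves ions and nutrients between choroid and retina. The neural retina itself is not pigmented.

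The libraries held 26041200 to 32614805 reads on genes. Zeb2 itself had 5916.7 to 6448.7 normalised counts in controls and 4273.6 to 5581.4 in mutants, without overlap, and was not called (limma adjusted p = 0.129). The 12 neural retina markers, such as Rax and Crx, summed to 163380 to 165720 in controls and 164490 to 178130 in mutants, so the labelled tissue was present at a similar level in every library. Among genes of the pigment epithelium, Lrat had 15 recovered reads over the 3 controls and 17 over the 3 mutants, and the potassium channel gene Kcnj13 had 34 and 22. Others had many more, such as Rrh with 2748 and 2867 and Stra6 with 687 and 693. Lrat, Kcnj13, Rrh and Stra6 were named after their values had been seen. Rpe65 was on the list of other pigment epithelium genes described below but had no values under that name, so it was not analysed here. In bulk tissue, fewer cells of a type and less RNA per cell cannot be told apart. Nothing in the labels says that the libraries of a group came from separate animals. Each p-value sets the group difference only against how far these samples vary within a group, in part perhaps for technical reasons.

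None of the 10 genes was called between mutant and control retinas at an adjusted p under 0.05 (limma on log2 of the normalised count + 1, over 16064 genes), where 1.15% of all genes tested were called, 0.928% higher and 0.218% lower. No member had an unadjusted p under 0.05 either, as 2782 of all genes tested did, and 0 were called by edgeR or DESeq2 on recovered reads. The 2 groups overlapped in all 10, whereas they did not overlap in 23.2% of all genes tested. The log2 fold change was above 0 for 8 members, as for 48% of all genes tested, and below 0 for 2, with a median of 0.20 against -0.0067 over all genes tested. Those signs depended on mutant libraries 1 and 2: without both, which leaves 1 mutant library, each of the 8 was below 0 and the median was -0.20. The melanin genes varied by library instead: control library 2 and mutant libraries 1 and 2 were the 3 highest for each of the 5 melanin genes, and control libraries 1 and 3 and mutant library 3 the 3 lowest. Of the 5 pigment epithelium genes, 1 (Rdh5) had the same 3 highest libraries.

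Tyr, Tyrp1 and Dct encode the 3 related enzymes of melanin synthesis, and in a classical account their promoters share the M-box, an element bound by MITF, the transcription factor of pigment cells. Their RefSeq promoters (GRCm38.p6, 250 bases before to 50 after the start site) are shown because these genes moved together over the libraries; capitals mark each CATGTG, the E-box at the heart of the M-box, on either strand. They lie at chr7:87493463-87493762 on the minus strand for Tyr, chr4:80833963-80834262 on the plus strand for Tyrp1 and chr14:118052197-118052496 on the minus strand for Dct.
Tyr: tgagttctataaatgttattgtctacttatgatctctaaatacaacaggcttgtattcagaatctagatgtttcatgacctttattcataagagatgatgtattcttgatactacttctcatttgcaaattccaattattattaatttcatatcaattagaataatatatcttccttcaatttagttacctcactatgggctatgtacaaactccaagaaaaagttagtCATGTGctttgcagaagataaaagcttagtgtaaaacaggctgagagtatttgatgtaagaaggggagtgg
Tyrp1: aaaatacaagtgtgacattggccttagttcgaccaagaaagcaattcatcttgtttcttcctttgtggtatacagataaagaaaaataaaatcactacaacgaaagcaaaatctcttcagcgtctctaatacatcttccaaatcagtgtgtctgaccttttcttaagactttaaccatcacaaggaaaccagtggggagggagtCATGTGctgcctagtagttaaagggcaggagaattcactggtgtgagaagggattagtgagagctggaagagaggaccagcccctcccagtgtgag
Dct: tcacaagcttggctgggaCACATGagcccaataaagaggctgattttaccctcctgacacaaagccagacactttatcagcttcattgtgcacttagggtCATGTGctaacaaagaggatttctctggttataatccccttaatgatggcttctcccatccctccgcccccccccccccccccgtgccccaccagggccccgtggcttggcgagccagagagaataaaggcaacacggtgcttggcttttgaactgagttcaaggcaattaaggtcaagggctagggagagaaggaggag

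The motif CATGTG, searched on both strands, first matched 21 bases before the start site in Tyr (position -21) and at position -46 in Tyrp1. In Dct it matched at -150, and at -232 on the other strand. It is common, being present in 14.2% of 32851 promoters of the same length. The longest run around it that Tyr and Tyrp1 shared was AGTCATGTGCT, which 7 of the 32851 promoters held (0.0213%). The run that Dct shared with both was GTCATGTGCT, held by 61 of them (0.186%). These runs were read from the promoters themselves, so their presence there is no finding. A match describes the letters and shows no binding. Of the 10 genes, 7 matched an entry, the others being Pmel, Mlana and Ttr. Of the pigment epithelium genes, Rgr held CATGTG once, on the other strand at -5, while Best1, Rdh5 and the entries of Trpm3 held none in this window.

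**Figure D1:**
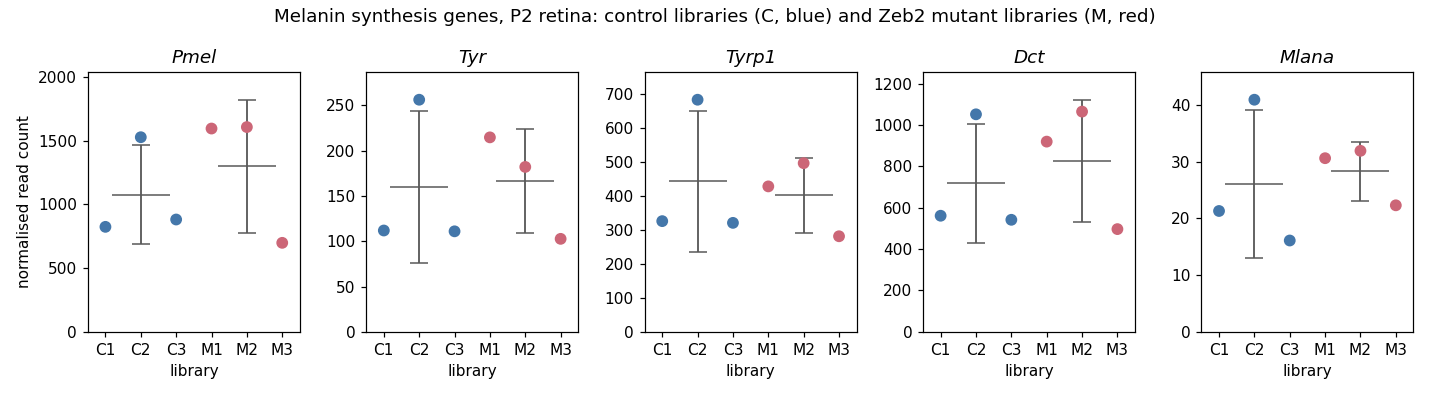
Normalised read counts (vertical axis, from 0) of the 5 melanin synthesis genes in each library (C1 to C3 control, M1 to M3 Zeb2 mutant), with the group mean and SD (n = 3 each) as bars. In each panel C2, M1 and M2 are the 3 highest points, and the ranges of the groups overlap.

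Pmel, which encodes the protein of the fibrils on which melanin is laid down (ENSMUSG00000025359; GRCm38 chromosome 10, 128704195 to 128720238, plus strand), was the most abundant of the melanin genes. Its normalised count was 824.2, 1527.5 and 881.8 in control libraries 1, 2 and 3, and 1595.6, 1607.1 and 698.8 in mutant libraries 1, 2 and 3. The highest control lay close to the 2 highest mutants and the lowest value of all was a mutant library's, so the groups overlapped fully. The means were 1078 ± 390 and 1300.5 ± 521 (SD, n = 3 each), a log2 fold change of 0.23 ± 0.34 (SE) with a 95% interval of -0.53 to 0.99 (limma adjusted p = 0.777). That interval runs from 0.690-fold to 1.99-fold, so these libraries do not tell apart changes within that range. It is not a limit of detection.

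Tyr, the gene of tyrosinase, the rate-limiting enzyme of melanin synthesis (ENSMUSG00000004651; chromosome 7, 87424771 to 87493512, minus strand), had 111.8, 256 and 110.9 normalised counts in controls and 214.5, 181.9 and 102.6 in mutants. Control library 2 was the highest of all 6, and mutant library 3 the lowest. Its log2 fold change of 0.11 ± 0.36 (SE; 95% interval -0.72 to 0.94; limma adjusted p = 0.908) was the smallest in size of the 10 but for that of Tyrp1.

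Tyrp1 encodes a tyrosinase-related protein of the later steps to brown-black melanin (ENSMUSG00000005994; chromosome 4, 80834123 to 80851719, plus strand). It had 325.8, 682.9 and 320.7 normalised counts in controls and 428, 496.3 and 281.3 in mutants. Control library 2 again stood above all others, here by the widest margin over mutant libraries 1 and 2 among the 3 enzyme genes. Tyrp1 was the melanin gene with a negative log2 fold change, -0.085 ± 0.30 (SE; 95% interval -0.78 to 0.61; limma adjusted p = 0.918).

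Dct, the gene of dopachrome tautomerase (ENSMUSG00000022129; chromosome 14, 118012790 to 118052244, minus strand), had 561.2, 1051.2 and 541.6 normalised counts in controls and 919.3, 1064.3 and 496.6 in mutants. Control library 2 and mutant library 2 were nearly equal at the top. Between the groups Dct differed by a log2 fold change of 0.20 ± 0.32 (SE; 95% interval -0.52 to 0.92; limma adjusted p = 0.796).

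Mlana encodes a small membrane protein of melanosomes (ENSMUSG00000024806, chromosome 19, 29697824 to 29708634, plus strand). Of the melanin genes it had the lowest normalised counts, before scaling by length. It had 21.3, 40.9 and 16.1 normalised counts in controls and 30.6, 31.9 and 22.3 in mutants, from 19 to 39 recovered reads in each library. The order of the libraries was that of the other melanin genes in its upper and lower 3. For Mlana it was 0.20 ± 0.35 (log2, SE; 95% interval -0.60 to 1.00; limma adjusted p = 0.820).

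The spread within a group was wider than the distance between the groups. Among controls the highest library stood above the lowest by 1.85-fold for Pmel, 1.94-fold for Dct, 2.13-fold for Tyrp1, 2.31-fold for Tyr and 2.54-fold for Mlana. The ratio of the mutant to the control mean was 0.907 to 1.21 for the same genes. Over all 6 libraries the highest-to-lowest ratio of the melanin genes was 2.14 to 2.54, against a median of 1.26 over all genes tested, and 88.3% to 92.3% of genes had a smaller ratio.

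The melanin genes kept similar proportions to each other while their sum moved. The summed normalised count was 1844, 3558 and 1871 in controls and 3188, 3382 and 1602 in mutants. Of that sum, Pmel made up 42.9% to 50.05% in the 6 libraries, Dct 28.8% to 31.5%, Tyrp1 13.4% to 19.2%, Tyr 5.38% to 7.19% and Mlana 0.861% to 1.39%. Tyrp1 varied most against the others of the 4 genes with the higher normalised counts. Its ratio to Pmel was 0.395, 0.447 and 0.364 in controls and 0.268, 0.309 and 0.403 in mutants, so that the 2 lowest ratios were those of mutant libraries 1 and 2, and mutant library 3 lay among the controls. These ratios compare each gene with itself across libraries and not the levels of different genes, since they are not scaled by length.

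**Figure D2:**
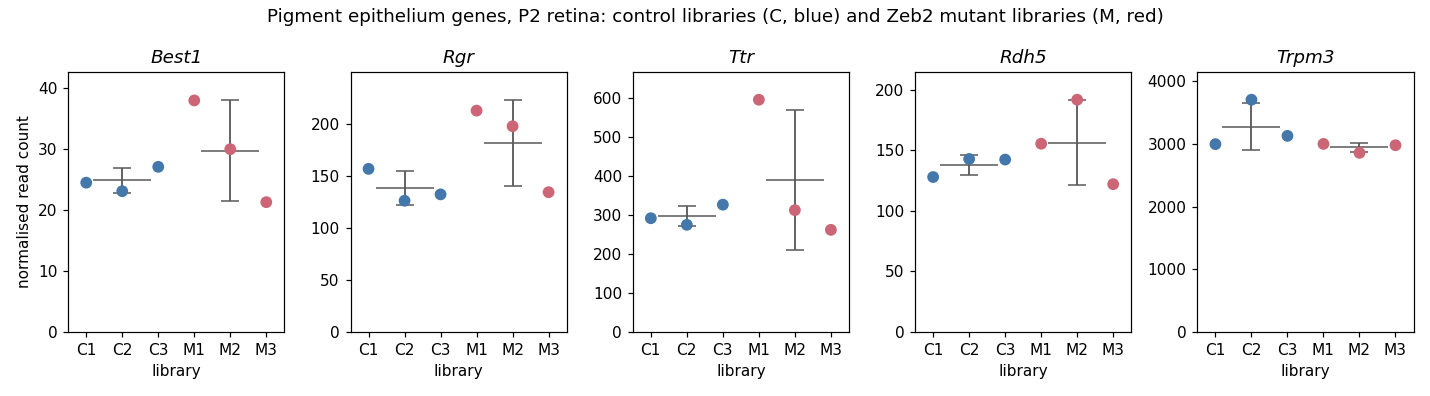
Normalised read counts (vertical axis, from 0) of the 5 pigment epithelium genes in each library (C1 to C3 control, M1 to M3 Zeb2 mutant), with the group mean and SD (n = 3 each) as bars. M1 stands apart for Ttr, C2 is highest for Trpm3 and lowest of the controls for Rgr, Ttr and Best1.

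Among the visual cycle genes, Rgr encodes an opsin of the pigment epithelium and Müller glia that helps regenerate retinal (ENSMUSG00000021804; chromosome 14, 37034909 to 37048964, minus strand). Its normalised count was 156.5, 125.9 and 132 in controls and 212.4, 197.4 and 134.1 in mutants. Mutant libraries 1 and 2 stood above every control, and mutant library 3 lay inside the control range. The means were 138 ± 16.2 and 181 ± 41.6 (SD, n = 3 each), and the log2 fold change of 0.37 ± 0.19 (SE; 95% interval -0.056 to 0.79; limma adjusted p = 0.356) was the largest of the 10. In control library 2, where each melanin gene was at its control maximum, Rgr was at its control minimum.

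Rdh5 encodes a retinol dehydrogenase that completes the recycling of visual chromophore in the pigment epithelium (ENSMUSG00000025350; chromosome 10, 128913593 to 128922888, minus strand). It had 127.8, 142.7 and 142.2 normalised counts in controls and 155.3, 191.6 and 121.9 in mutants. Its 3 highest libraries were the same 3 as for the melanin genes, but control libraries 2 and 3 were nearly equal. Between the groups Rdh5 differed by a log2 fold change of 0.16 ± 0.17 (SE; 95% interval -0.23 to 0.55; limma adjusted p = 0.685). Rdh5 shares 720 bases of exon with Bloc1s1 on the same strand, so reads there cannot be assigned to either gene.

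Ttr encodes transthyretin, the carrier of thyroxine and of retinol-binding protein, which the pigment epithelium and the choroid plexus of the brain make in large amounts (ENSMUSG00000061808; chromosome 18, 20665280 to 20674321, plus strand). It had 291.8, 274.9 and 326.6 normalised counts in controls and 596, 312.5 and 262 in mutants. Mutant library 1 stood alone, while mutant libraries 2 and 3 lay inside or just below the control range. The log2 fold change was 0.30 ± 0.26 (SE; 95% interval -0.30 to 0.89; limma adjusted p = 0.612), and without mutant library 1 it was -0.054. Across controls Ttr varied by 1.19-fold, where the melanin genes varied by 1.85-fold to 2.54-fold.

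Of the channel genes, Best1 encodes bestrophin, a chloride channel of the pigment epithelium (ENSMUSG00000037418; chromosome 19, 9985174 to 10001633, minus strand). It had 24.5, 23.1 and 27.1 normalised counts in controls and 38, 30 and 21.3 in mutants, from 21 to 36 recovered reads in each library. Mutant libraries 1 and 2 lay above the controls and mutant library 3 below them. The log2 fold change was 0.21 ± 0.26 (SE; 95% interval -0.39 to 0.81; limma adjusted p = 0.730).

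Trpm3, a cation channel gene that is expressed in the pigment epithelium and also in other neural tissue (ENSMUSG00000052387; chromosome 19, 22139046 to 22995410, plus strand), was the most abundant member by normalised count, before scaling by length. Its normalised count was 2997.5, 3706.4 and 3129.3 in controls and 3001, 2858.1 and 2979.9 in mutants. Mutant library 1 lay just above control library 1, and every other mutant value lay below every control. The means were 3278 ± 377 and 2946 ± 77.1 (SD, n = 3 each), a log2 fold change of -0.15 ± 0.076 (SE; 95% interval -0.32 to 0.026; limma adjusted p = 0.364). Its highest-to-lowest ratio over the libraries was 1.30, the smallest of the 10 and close to the 1.26 of all genes tested. Trpm3 had the narrowest interval, 0.800-fold to 1.02-fold.

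**Figure D3:**
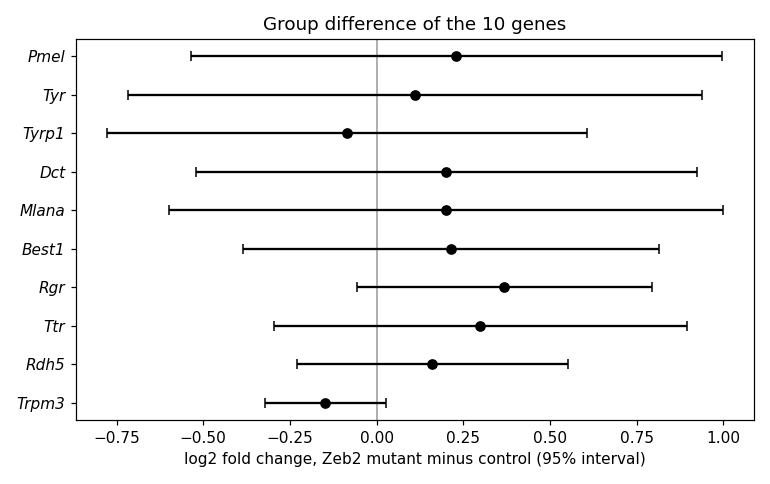
Log2 fold change (horizontal axis, Zeb2 mutant minus control, on log2 of the normalised count + 1) of the 10 genes with the 95% interval from limma (3 libraries a group). Every interval includes 0, and those of the melanin genes are the widest.

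Per kilobase of annotated exon, which allows levels to be set side by side, Pmel led with 470 ± 170 normalised counts in controls (SD, n = 3), followed by Ttr with 251 ± 22.2, Tyrp1 with 157 ± 73.4, Trpm3 with 134 ± 15.4 and Dct with 122 ± 49.0. Rdh5 had 49.0 ± 3.01 per kilobase, Rgr 28.9 ± 3.38, Mlana 24.7 ± 12.4, Tyr 22.5 ± 11.8 and Best1 9.66 ± 0.787. The ranges of mean ± SD of Ttr and Tyrp1 touched, those of Tyrp1, Trpm3 and Dct overlapped, and so did those of Rgr, Mlana and Tyr. These ranges alone set no order within these groups, and the genes were not compared library by library. Every exon of every annotated transcript was counted in the length, which lowers the level of genes with many long isoforms such as Trpm3 (24437 bases). Pmel shares 34 bases of exon with Cdk2 and 105 with Dgka on the opposite strand, and Trpm3 shares 277 with the antisense gene Gm27151 and 351 with C330002G04Rik. Which strand setting was used in counting is not stated there.

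Other genes of pigment cells were tested as a list of 23, which held regulators, melanosome transporters and genes of melanosome transport. Of 20 tested, 1 was called higher and 0 lower, with 9 log2 fold changes above 0 and 11 below, and a median of -0.013. Over all genes tested, 0.928% were called higher and 0.218% lower, and 48% had a log2 fold change above 0. The called gene was Rab27a, the GTPase that ties melanosomes and other secretory organelles to the motor of actin filaments. It had 141.6, 171 and 176.9 normalised counts in controls and 257.8, 299.9 and 242.7 in mutants. Every mutant library lay above every control, and Rab27a rose (log2 fold change 0.71 ± 0.13, SE; limma adjusted p = 0.0472). Its libraries did not follow the order of the melanin genes, since control library 2 lay below control library 3. The limma adjusted p of Rab27a was 0.172, 0.0812 and 0.0746 without control library 1, 2 or 3, 0.160 and 0.0833 without mutant library 2 or 3, and 0.202 without mutant libraries 1 and 2 together, a fit with 1 mutant library that is assumed to vary like the controls. The motor itself, Myo5a, was the most abundant of the list, at 4185 ± 49.9 and 3868 ± 286 (SD, n = 3 each; limma adjusted p = 0.349).

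The 3 highest libraries were those of the melanin genes for 6 of these 20, against 5.02% of all genes tested. This order was counted after the values had been seen, and is a description. Among the 6 were Mitf, with 104.4, 198.3 and 125.2 normalised counts in controls and 145.8, 145.1 and 129 in mutants, and the ion exchanger gene Slc24a5, with 53.2, 94.4 and 49.1 in controls and 79.3, 72.6 and 38.6 in mutants. Oca2, a melanosome transporter gene, had 37.3, 135.3 and 21.2 in controls and 49.7, 45.5 and 30.5 in mutants, with control library 2 far above the rest. These 3 were named after their values had been seen.

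Other genes of the pigment epithelium formed a list of 25. Of 21 tested, 1 was called higher and 0 lower, with 13 log2 fold changes above 0 and 8 below, and a median of 0.060. The shares over all genes tested were 0.928% called higher, 0.218% called lower and 48% above 0. The called gene was Krt18, a keratin gene of simple epithelia. It had 216.2, 297.9 and 236.9 normalised counts in controls and 458.6, 478 and 360.5 in mutants. The groups did not overlap, and Krt18 rose (log2 fold change 0.79 ± 0.15, SE; limma adjusted p = 0.0499), close to the threshold. The limma adjusted p of Krt18 was 0.187 and 0.113 without control library 1 or 3, 0.0605, 0.170 and 0.0534 without mutant library 1, 2 or 3, and 0.247 in the fit with mutant library 3 as the 1 mutant library. Otx2, the most abundant of the list and a gene of photoreceptor precursors as well, stood at 29165 ± 1443 and 27571 ± 2216 (limma adjusted p = 0.5998). The 3 highest libraries were those of the melanin genes for 7 of the 21. One was Serpinf1, which encodes a growth factor secreted by the pigment epithelium and was named after its values had been seen, with 86.3, 204.6 and 82.1 normalised counts in controls and 142.7, 113.2 and 67 in mutants.

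Markers of other tissues that a dissection could hold also differed between these libraries, and their part in the levels of the 10 genes was not tested. Control library 2 had the highest summed count of lens and of ciliary margin genes. The 11 lens genes summed to 11337 normalised counts there, against 1449 and 3123 in the other controls and 878 to 4118 in the mutants, and Lim2 was at 0 in every library. The 9 ciliary margin genes summed to 8560 there, against 5367 to 5416 in the other controls and 5584 to 7774 in the mutants. Not every gene followed these sums. The ciliary margin genes Zic1, Zic2 and Cdo1 were highest in mutant library 2, and the lens gene Crygs in mutant library 3. These genes were named after their values had been seen.

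Mutant libraries 1 and 2 carried other markers. Their mesenchyme and choroid genes summed to 16297 and 11392 normalised counts, against 6897 in mutant library 3 and 5497 to 8425 in controls, and their astrocyte genes to 7699 and 6022, against 2331 and 1931 to 2600. Of the 11 mesenchyme genes tested, 7 had control library 2 and mutant libraries 1 and 2 as their 3 highest, like the melanin genes. Col1a1, a collagen gene named after its values had been seen, had 37.3, 260.2 and 110.9 in controls and 2138.7, 724.7 and 62 in mutants, so that mutant library 1 exceeded control library 2 for Col1a1 by a far wider margin than for any melanin gene. Microglia genes summed to 1416, 2531 and 1841 in controls and 2398, 2848 and 2238 in mutants, and 5 of 8 had the same 3 highest libraries. No member of the lens, ciliary margin, mesenchyme, astrocyte or microglia lists was called, where 1.15% of all genes tested were called. With 10, 9, 11, 6 and 8 genes tested in these lists, 0 calls say little about them.

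Neural crest melanocytes are marked among others by Sox10 and Kit, both of which have further sources in an eye (glia of nerves, and neurons or progenitors of the retina). The 5 tested of the 6 melanocyte genes gave 0 calls and a summed count of 4098 to 4601 in controls and 4056 to 4711 in mutants, most of it Kit. Sox10, named after its values had been seen, had 12.8, 19.9 and 19.5 normalised counts in controls and 33.8, 54.2 and 5.1 in mutants. Mutant libraries 1 and 2 were highest for it and mutant library 3 lowest. The more abundant Ednrb of the same list had 678.3, 658.8 and 831.8 in controls and 1562.8, 1498.7 and 680.5 in mutants (limma adjusted p = 0.246). The list of Schwann cell genes summed to 4014 to 4324 and 3864 to 4242. Choroid plexus genes, which bear on Ttr, summed to 252, 553 and 253 in controls and 358, 386 and 242 in mutants, and their part in the level of Ttr was not tested. Folr1 made up 278 of the sum in control library 2. Clic6 had 59.6, 82.9 and 59.2 normalised counts in controls and 109.9, 120.9 and 42.7 in mutants. Kcne2 had 34.1, 61.9 and 47.4 in controls and 79.3, 86.1 and 69.1 in mutants. Both were higher in mutant library 2 than in mutant library 1, as were Folr1 and Sostdc1. Ttr was higher in mutant library 1, and so were the low genes Prlr (10.6 against 8.7 normalised counts) and Kl (10.6 against 2.9). Folr1, Clic6, Kcne2, Sostdc1, Prlr and Kl were named after their values had been seen. Müller glia genes, which bear on Rgr, summed to 80219 to 86513 and 85925 to 97038. Of the 10 tested, 1 was called, where 1.15% of all genes tested were called. The called gene, Sox9, fell by 0.28 (log2, limma adjusted p = 0.0379). Its limma adjusted p was 0.0856 to 0.140 without any single library other than mutant library 1. Endothelial genes summed to 18440 to 21028 and 17830 to 19924, and red blood cell genes to 41.6 to 290 and 78.2 to 118, with 0 calls in either list.

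**Figure D4:**
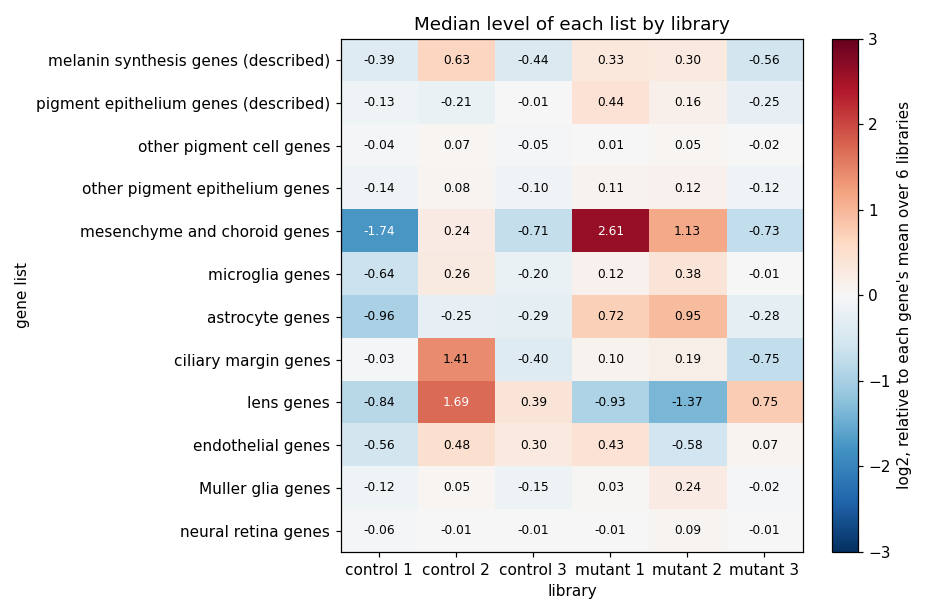
Median over the tested genes of each list (rows) of the log2 level relative to the gene's own mean over the 6 libraries, by library (columns), with the value printed in each cell. The melanin row is above 0 in control library 2 and mutant libraries 1 and 2, where control library 2 is also high in the ciliary margin and lens rows, and mutant libraries 1 and 2 in the mesenchyme and astrocyte rows.

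The genes whose pattern was most like that of the melanin genes were found by Pearson's r, over the 6 libraries, between a gene's log2 level and the mean of the 5 melanin genes. The 5 highest were Nsfl1c (r = 0.998), the growth factor receptor gene Fgfr2 (r = 0.990), the cyclin gene Ccnd3 (r = 0.987), the collagen gene Col8a2 (r = 0.983) and Ahnak (r = 0.980). They differed in how far they moved: the highest-to-lowest ratio was 1.10 for Nsfl1c and 1.24 for Ccnd3, but 2.54 for Fgfr2, 2.39 for Col8a2 and 2.70 for Ahnak, as wide as for the melanin genes. Fgfr2 had 92.6, 210.9 and 82.9 normalised counts in controls and 187, 174.2 and 89.4 in mutants. With 6 libraries and 16064 genes many reach a high r, 120 of them over 0.9. For the mean of the 5 pigment epithelium genes the most alike were the AP-1 subunit gene Fosl1 (r = 0.9996), Tmem261 (r = 0.995), Lgr6 (r = 0.994), Ndufa5 (r = 0.981) and Fhl2 (r = 0.977), each highest in mutant library 1 and then in mutant library 2. The lists of 5 for the melanin and for the pigment epithelium genes held no gene in common.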

How the data were processed

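Poly-A RNA from 6 P2 mouse retina samples was compared, grouped and numbered as in the sample titles. Per the submitters' processing notes, which give no roles, the build was GRCm38 and the tools were HTSeq, STAR 2.4.2a, DESeq2 and cutadapt. The deposited table holds a signal, the gene count after scaling of each library (normalised counts, per the file headers), which the authors rounded to 1 decimal. It had 0 further value columns. Every value (100%) was a whole multiple of its library's step, to within 0.06, so dividing by that step gave back whole reads.

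The main test was limma 3.58.1 in R 4.3.3, with trend, on log2(normalised count + 1), over 16064 genes whose mean reached 10, without covariates, 2-sided, adjusted by Benjamini-Hochberg over all of them; such fold changes understate those of low genes. All 10 members passed the filter. Intervals are limma's 95% intervals and cover the spread between libraries. Coordinates and exon lengths came from GENCODE M21 (GRCm38; 20115 of 20175 IDs matched). Alternatives included edgeR 4.0.16 and DESeq2 1.42.0 on the recovered reads. The steps were tested on simulated data.

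The members and lists were chosen with earlier results of these data known. By rule, the text was to name all members, Zeb2 and the genes most like the members in pattern. Of each list it was to name the called genes or the most abundant ones, which was not done for every list. Genes outside this rule are named too, and not all of them are marked as named after their values were seen.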

Additional observations from a re-analysis of the deposited data

How the results depend on the processing

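None of the 10 genes was called under any of 18 alternatives; Mlana and Best1 were not tested at a mean of at least 50. The lowest adjusted p of a member was 0.140 (edgeR, DESeq2 and limma fits together). Of 178 member values under alternatives, 155 kept their sign and 23 changed it, and the cause was not tested. Without mutant libraries 1 and 2 the log2 fold change was -0.57 for Pmel, -0.51 for Tyr, -0.46 for Dct, -0.11 for Mlana, -0.21 for Best1, -0.036 for Rgr, -0.18 for Ttr and -0.17 for Rdh5, and the medians were -0.20 (all members), -0.51 (melanin genes) and -0.17 (pigment epithelium genes). With Col1a1 as a covariate it was -0.34 for Pmel, -0.44 for Tyr, -0.28 for Dct, -0.10 for Mlana, -0.033 for Best1, -0.033 for Ttr and -0.015 for Rdh5. Leaving out 1 library at a time gave -0.10 to 0.51 for Tyr, -0.27 to 0.27 for Tyrp1, -0.017 to 0.53 for Dct, -0.079 to 0.57 for Mlana and -0.054 to 0.54 for Ttr, and, with the sign kept, 0.028 to 0.63 for Pmel, 0.025 to 0.43 for Best1, 0.0022 to 0.33 for Rdh5, 0.24 to 0.57 for Rgr and 0.021 to 0.43 for the median of the members. Trpm3 stayed below 0 in all 18, from -0.21 to -0.056.

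The count of all genes called was 184, 27 to 600 without 1 library, 180 with edgeR and 874 with DESeq2. Of the other pigment cell genes, 1 was called, and 0 with the replicate block or the Col1a1 covariate; without 1 library it was 0 to 1. When mutant library 2 was left out, the 1 called gene was Myo7a in place of Rab27a, as it was with mutant library 1 left out too, a fit in which 1 mutant library is assumed to vary like the controls. Of the other pigment epithelium genes, 1 was called; it was 0 with a pseudocount of 0.1, a mean of at least 50, TMM, edgeR, the Col1a1 covariate and without mutant libraries 1 and 2, 2 with DESeq2 (Krt18 and Cst3), and 0 to 1 without 1 library. Control and mutant libraries share replicate numbers in their titles, which say nothing more of pairing. For libraries of the same number, the correlations of their deviations were 0.016, 0.15 and -0.063. Mutant libraries 1 and 2 correlated best with their own number, mutant library 3 with control 1. With 3 libraries a group, these values do not settle whether the libraries were paired. The replicate block changed no member's call, moved the count of all genes called from 184 to 248, and gave an adjusted p of 0.0562 for Rab27a and 0.0625 for Sox9, neither called there. Depth limits Mlana and Best1 most, at 19 to 39 and 21 to 36 reads.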

Other observations

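A few genes on the list of other pigment cell genes varied over the libraries by far more than the melanin genes, in patterns of their own; they were picked after their values had been seen, and none was called. Slc7a11, which encodes the cystine transporter that influences pheomelanin, had 1292.7, 1519.1 and 114.2 normalised counts in controls and 142.7, 169.3 and 1360.9 in mutants, so that both groups held high and low libraries, up to 13.3-fold apart. Myo7a, a myosin gene of melanosome movement in the pigment epithelium, had 950.9, 963.1 and 970.6 in controls and 629.8, 145.1 and 591.1 in mutants, without overlap (limma adjusted p = 0.191), with mutant library 2 far below the rest. Without mutant library 2 it was called. Rab38, a GTPase gene of melanosome protein sorting, had 120.6 in control library 2 and 2 to 14.9 in the other 5 libraries, a highest-to-lowest ratio of 60.3.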
